A study of Arabidopsis thaliana with 20 samples.

Results

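The genes described here are PRK (AT1G32060), SBPASE (AT3G55800), PPDK (AT4G15530) and AT5G17630, which encode enzymes and a carrier of plastid carbon metabolism. They are 4 of the 691 genes that had an array row of their own, and each was read by 1 row whose annotation lists that gene alone. The genes were picked because of how they differed between the genotypes in these same data, so their genotype differences are given as a description, without a test. The study measured total RNA of Arabidopsis thaliana in 20 array columns. Of these, 10 were labelled WT, the wild type of ecotype Columbia 0, and 10 were labelled atpc1-1, a mutant in the same ecotype without the γ subunit of ATP synthase. Both were grown on MS medium, a defined mineral medium for plant culture, so ecotype and medium were shared by the groups. The labels give no tissue, age or light regime, and do not say whether atpc1-1 comes from several lines.

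The Calvin cycle fixes carbon dioxide in the chloroplast stroma and regenerates its acceptor, ribulose 1,5-bisphosphate, using ATP made by the thylakoid ATP synthase. Phosphoribulokinase, the product of PRK, carries out the last step of that regeneration and spends ATP to do so. Sedoheptulose-bisphosphatase, the product of SBPASE, works earlier in the same regenerative branch, and both enzymes are switched on in the light through thioredoxin. Pyruvate orthophosphate dikinase, the product of PPDK, interconverts pyruvate and phosphoenolpyruvate and also uses ATP. AT5G17630 encodes the xylulose 5-phosphate translocator of the plastid envelope, which exchanges pentose and triose phosphates with inorganic phosphate and so connects the sugar phosphate pools of plastid and cytosol.

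PRK stood higher in atpc1-1 than in WT, and SBPASE, PPDK and AT5G17630 stood lower. On the quantile-normalised scale PRK was 3.21-fold higher, SBPASE 2.05-fold lower, PPDK 2.18-fold lower and AT5G17630 10.3-fold lower. These directions were the same on the deposited scale, under median centring, under cyclic loess, with either other treatment of values of 0, and with each replicate left out. The size of the differences did depend on the scale and is given for each gene below.

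All 4 rows had a value above 0 in 10 of 10 columns of each genotype. What was deposited is a linear intensity for each row and column. The columns of each genotype were averaged in adjoining pairs (1 with 2, 3 with 4 and so on) into replicates 1 to 5. This was done because each column resembled that partner more than any other column of its genotype, by deviations from the genotype mean. Whether different replicates are different plants is not stated in the labels, so their spread may be technical. In RNA from whole samples, fewer cells of a type and less RNA per cell cannot be told apart. The median row of a column read 0.339 to 0.493 in WT against 0.130 to 0.224 in atpc1-1. Rows at 0 made up 3.63% to 4.36% of a WT column and 5.70% to 20.8% of an atpc1-1 column. The highest value of a column was 100 in every atpc1-1 column and 70.8 to 90.4 in the WT columns. Whether the genotypes were scaled alike is not known, which limits every difference on the deposited scale. WT replicate 5 stood apart, with a Spearman rho across rows of 0.816 to 0.836 with WT replicates 1 to 4, which had 0.887 to 0.951 with one another. The row that lists ATPC1 also lists ATPC2, so the mutated gene was not read by a row of its own. That row had a log2 difference of 0.18 on the quantile scale and -0.81 on the deposited scale, with overlapping replicates on both, and it checks nothing about the labels.

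**Figure D1:**
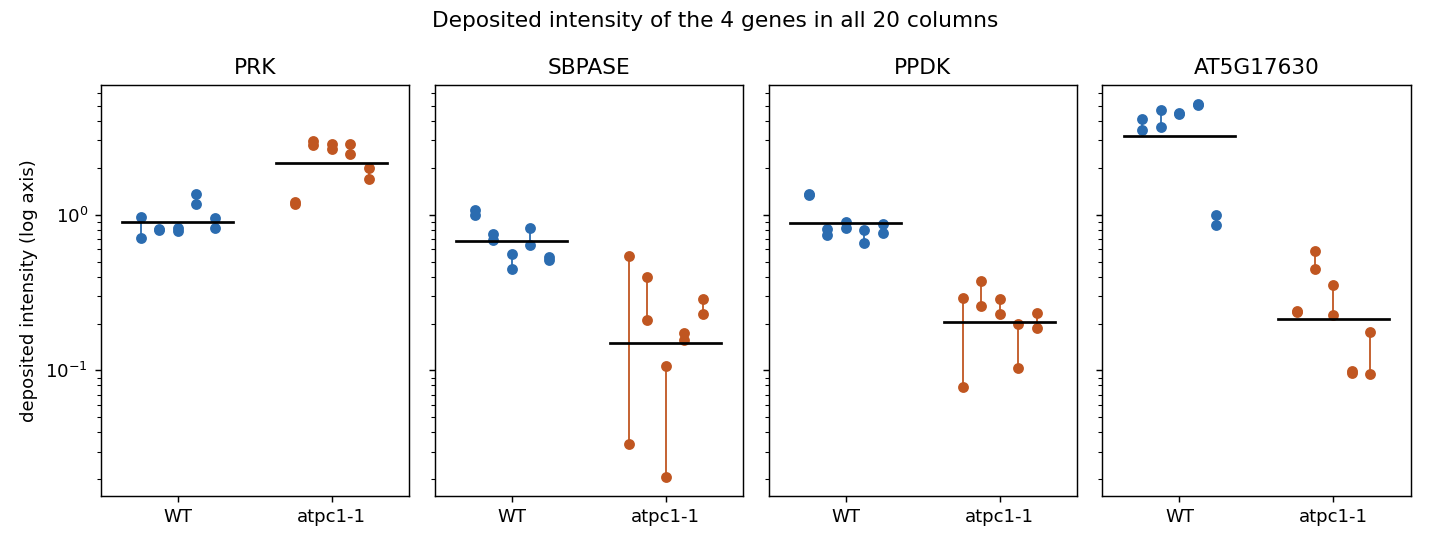
Deposited intensity (vertical, log axis) of PRK, SBPASE, PPDK and AT5G17630 in the 10 WT and 10 atpc1-1 columns, with lines joining the columns of a replicate and a black bar at the geometric mean of the 5 replicates. The PRK columns of atpc1-1 lie at 1.17 or more and those of WT at 1.36 or less, the other genes lie lower in atpc1-1 by their means, and AT5G17630 in WT replicate 5 lies far below WT replicates 1 to 4.

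PRK had deposited intensities, as geometric means of the columns of each replicate, of 0.827, 0.802, 0.800, 1.26 and 0.882 in WT replicates 1 to 5. In atpc1-1 replicates 1 to 5 they were 1.19, 2.89, 2.76, 2.63 and 1.85. WT replicate 4 was the highest of WT, and atpc1-1 replicate 1 was by far the lowest of atpc1-1, so the groups overlapped on this scale through these replicates alone. The mean log2 intensity was -0.15 ± 0.28 in WT and 1.10 ± 0.54 in atpc1-1 (SD, n = 5 each), a 2.39-fold difference. PRK therefore differed upwards on a scale on which the median of all tested rows was -1.22. On the quantile scale the means were -0.54 ± 0.41 and 1.15 ± 0.56 (SD, n = 5 each), a log2 difference of 1.68 with an SE of 0.32, and the replicates did not overlap. Under median centring the log2 difference was larger, at 2.42 (SE 0.34).

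SBPASE had deposited intensities of 1.03, 0.715, 0.4995, 0.723 and 0.525 in WT replicates 1 to 5 and of 0.135, 0.288, 0.0470, 0.164 and 0.257 in the atpc1-1 replicates. Every atpc1-1 replicate was below every WT replicate on this scale, as in 40.4% of rows with all replicates measured. The mean log2 intensities were -0.57 ± 0.42 in WT and -2.73 ± 1.04 in atpc1-1 (SD, n = 5 each). On the quantile scale, however, the replicates overlapped, at -1.07 ± 0.46 and -2.10 ± 0.97 (SD, n = 5 each), with a log2 difference of -1.04 (SE 0.44). The lower level thus exceeded the replicate spread on the deposited scale, where the median row was also lower, and not on the quantile scale. With a pseudocount of 0.1 the log2 difference was -0.44 (SE 0.24), and without atpc1-1 replicate 3, the lowest, it was -0.65 on the quantile scale.

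In atpc1-1 replicates 1 to 3 the columns of SBPASE disagreed more than those of the other genes. Columns 1 and 2 of atpc1-1, which form replicate 1, read 0.546 and 0.0335, a 16.3-fold gap, and columns 5 and 6, which form replicate 3, differed 5.16-fold. Only 2.67% of the rows above 0 in both columns of atpc1-1 replicate 1 had a gap that large, and the median gap there was 1.43-fold. Column 1 of atpc1-1 lay inside the WT range of 0.446 to 1.08. In WT the partner columns of SBPASE differed by 1.28-fold at most. SBPASE lay at percentile 25.6 in atpc1-1 column 2, where 20.2% of rows were at 0. In atpc1-1 column 6 it lay at 22.4, where 17.9% of rows were at 0. These readings were thus among the lowest above 0, and they enter the replicate means, SD and differences of SBPASE.

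PPDK had deposited intensities of 1.35, 0.775, 0.856, 0.728 and 0.816 in WT replicates 1 to 5 and of 0.151, 0.311, 0.257, 0.144 and 0.2100 in the atpc1-1 replicates. WT replicate 1 was the highest, and every atpc1-1 column, at 0.376 or less, was below the lowest WT column at 0.662. Such separation was common on this scale: by replicates, 40.4% of rows with all replicates measured lay wholly lower in atpc1-1. The share by columns was not counted. The mean log2 intensity was -0.18 ± 0.35 in WT and -2.28 ± 0.48 in atpc1-1 (SD, n = 5 each), a 4.29-fold difference on the deposited scale. On the quantile scale it was -0.57 ± 0.42 and -1.69 ± 0.43 (SD, n = 5 each), a log2 difference of -1.12 with an SE of 0.29, and the replicates did not overlap. The PPDK gene gives rise to a plastid and a cytosolic form of the enzyme, and the probe annotation used here does not say which of them the row reads.

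AT5G17630 had the largest genotype difference of the 4 genes. Its deposited intensities were 3.77, 4.14, 4.46, 5.12 and 0.923 in WT replicates 1 to 5 and 0.239, 0.512, 0.285, 0.0976 and 0.130 in the atpc1-1 replicates. WT replicates 1 to 4 were close together, WT replicate 5 was below them, and all atpc1-1 replicates were below WT replicate 5. The mean log2 intensity was 1.67 ± 1.01 in WT and -2.23 ± 0.95 in atpc1-1 (SD, n = 5 each), a 14.9-fold difference on the deposited scale. On the quantile scale the log2 difference was -3.37 (SE 0.53), and without WT replicate 5 it was -3.88. The direction was thus the same with and without that replicate. Without that replicate the log2 differences of PRK, SBPASE and PPDK were 1.75, -1.06 and -1.09, close to those with it.

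**Figure D2:**
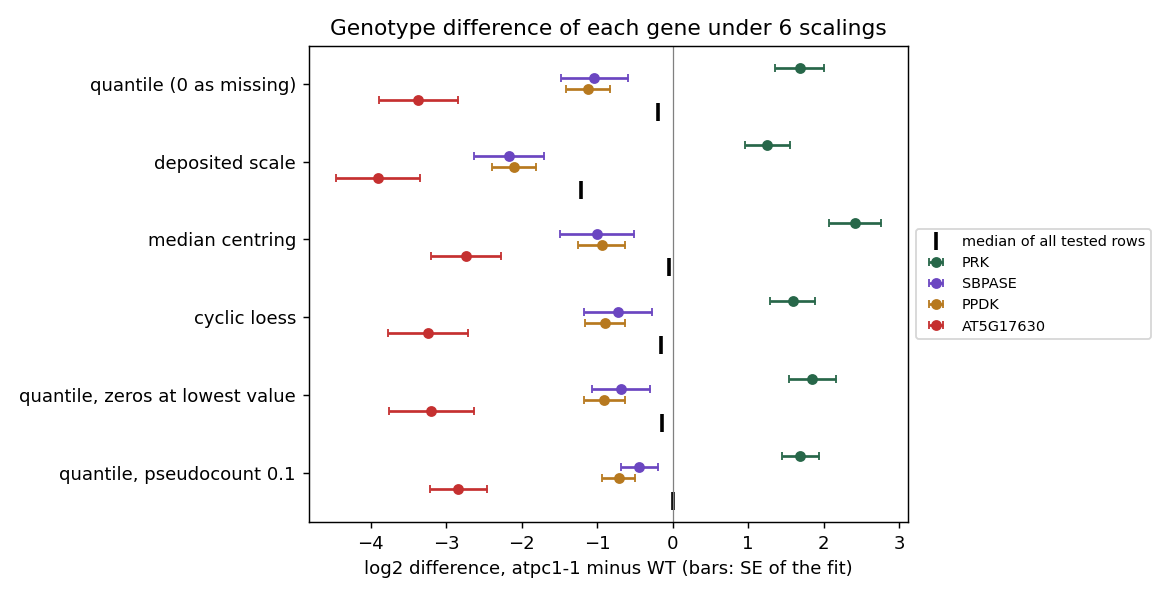
Log2 difference (atpc1-1 minus WT, horizontal) of each gene under 6 scalings, with bars of 1 SE from the limma fit and a black tick at the median of all tested rows. PRK lies between 1.26 and 2.42, and the other genes lie below 0 and below the median row under each scaling.

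Seen against all 3298 rows that could be fitted, the genes differ in how far out they lie. On the quantile scale 171 rows had a higher log2 difference than PRK and 8 rows had a lower one than AT5G17630. SBPASE and PPDK were nearer to the bulk, with 592 and 527 rows lower. On the deposited scale the counts were 96 rows above PRK, 32 below AT5G17630, 653 below SBPASE and 709 below PPDK. The background was high: with limma and Benjamini-Hochberg adjustment 24.5% of rows were called at an adjusted p under 0.05, 10.2% higher and 14.3% lower in atpc1-1. Without any model, the 5 atpc1-1 replicates lay wholly above the 5 WT replicates in 6.71% of rows with all replicates measured, as PRK did on the quantile scale. They lay wholly below in 10.4% of such rows, as PPDK and AT5G17630 did. On the deposited scale they lay wholly below in 40.4%, as SBPASE, PPDK and AT5G17630 did. Since the genes were chosen from this contrast, these shares place them and test nothing.

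**Figure D3:**
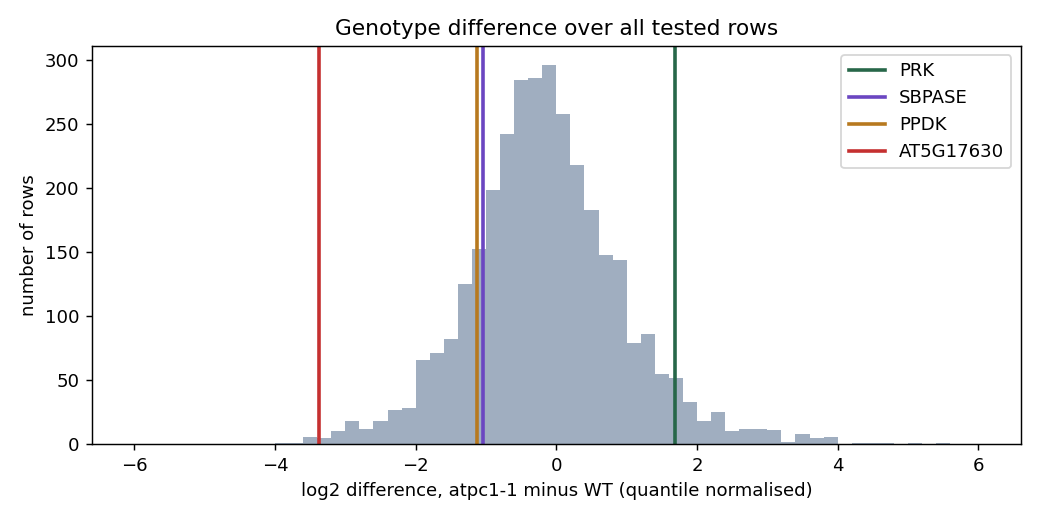
Number of rows (vertical) by log2 difference, atpc1-1 minus WT, on the quantile scale (horizontal) over the 3298 tested rows, with a coloured line at each of the 4 genes. SBPASE at -1.04 and PPDK at -1.12 lie near the bulk of rows, and PRK at 1.68 and AT5G17630 at -3.37 lie further out on opposite sides.

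The place of a row among all 3439 rows of its own column needs no scaling between columns. PRK moved from percentiles of 65.3 to 85.6 in WT columns (median 74.1) to 88.2 to 95.2 in atpc1-1 columns (median 93.9), without overlap. AT5G17630 was among the brightest rows of WT, at a median percentile of 96.5, and had a median of 58.8 in atpc1-1. Its lowest WT columns, those of replicate 5, at 79.4 and 82.0, were just above the highest atpc1-1 column at 78.4. PPDK had medians of 74.6 and 59.9, and its ranges of 64.4 to 84.3 and 34.9 to 68.0 overlapped. SBPASE had medians of 65.9 and 54.4, and its atpc1-1 columns spread from 22.4 to 79.0, across the whole WT range of 45.1 to 78.7. By rank, therefore, the genotypes were separated in all columns for PRK and AT5G17630, and overlapped for PPDK and SBPASE. Of all rows, 4.89% lay wholly higher by percentile in the atpc1-1 columns and 2.62% wholly lower.

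**Figure D4:**
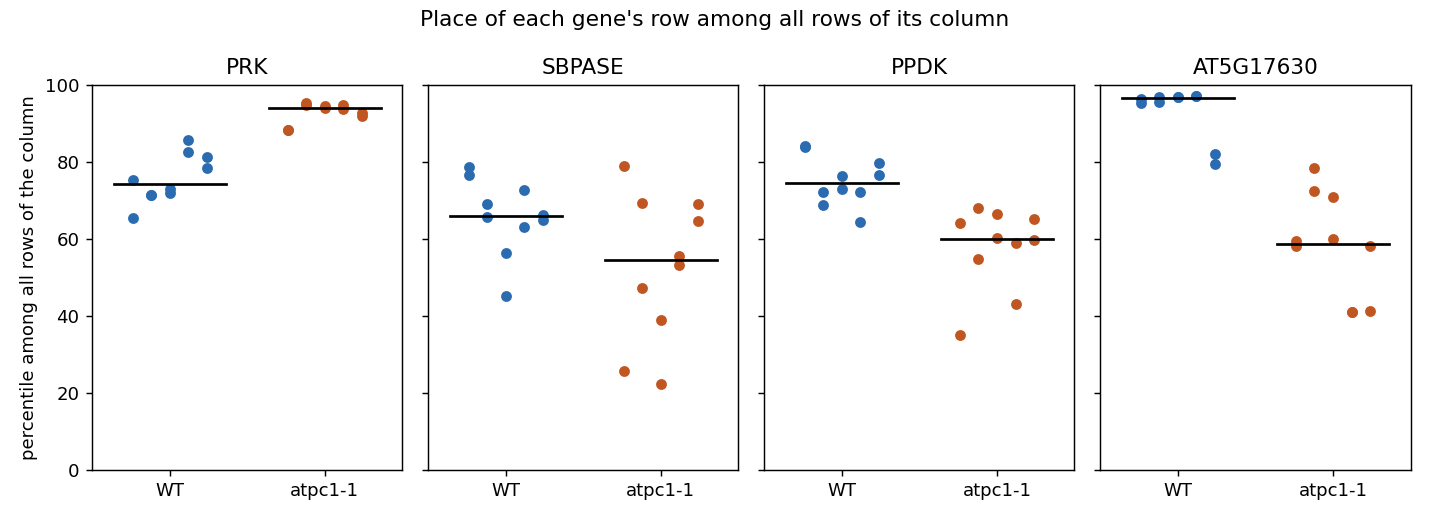
Percentile of each gene's row among all rows of its column (vertical) in the WT and atpc1-1 columns, with a black bar at the median of 10 columns. PRK and AT5G17630 do not overlap between genotypes, while SBPASE spans 22.4 to 79.0 in atpc1-1.

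Dividing the intensities of 2 rows of the same column removes any constant that multiplies the column. It does not remove a change that differs between bright and dim rows. The height of such a ratio depends on the probes and has no meaning of its own, but its shift between genotypes shows that the rows moved unequally. The log2 ratio of PRK over SBPASE shifted by 3.42 (SE 0.59), from 0.42 ± 0.49 in WT to 3.84 ± 1.22 in atpc1-1 (SD, n = 5 each), a 10.7-fold shift. The replicates did not overlap, but the highest WT column at 1.09 almost met the lowest atpc1-1 column at 1.11, which is column 1, in which SBPASE was high. PRK and SBPASE, which act in the same branch of the Calvin cycle, thus shifted unequally between the genotypes. After quantile normalisation, a setting chosen after seeing the data, the shift was 2.72. Most other rows were likewise lowered against PRK on the deposited scale, so the unequal shift is not particular to this pair.

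The log2 ratio of PRK over PPDK shifted by 3.36 (SE 0.32), from 0.03 ± 0.54 to 3.39 ± 0.48 (SD, n = 5 each). Here the columns were well separated, at 1.03 or less in WT and at 2.04 or more in atpc1-1. The log2 ratio of PRK over AT5G17630 shifted most, by 5.16 (SE 0.63), from -1.82 ± 1.00 to 3.33 ± 1.00 (SD, n = 5 each), a 35.7-fold shift. The WT columns of that ratio reached -0.06, in replicate 5, and the atpc1-1 columns began at 2.30. Without WT replicate 5 the shift was 5.60. PRK thus moved against each of the other genes by 10.3-fold or more on the deposited scale. With cyclic loess the shifts against SBPASE and PPDK were smaller, at 2.31 and 2.49 on the log2 scale. PRK itself had a log2 difference of 1.26 on the deposited scale. There 3201 of the 3298 tested rows had a lower difference, and the median row had -1.22. PRK therefore moved against most rows, and the share of rows that separate from it by ratio was not counted.

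Among the genes that were lower in atpc1-1, SBPASE and PPDK showed no shift against each other beyond their spread when all replicates were kept. Their log2 ratio was -0.38 ± 0.33 in WT and -0.45 ± 1.14 in atpc1-1 (SD, n = 5 each), a difference of -0.06 with an SE of 0.53, which leaves room for a shift of either sign. Without atpc1-1 replicate 3, the lowest for this ratio, the difference was 0.44 with an SE of 0.18. AT5G17630 was lowered further than both. The log2 ratio over AT5G17630 shifted by 1.80 (SE 0.56) for PPDK and by 1.74 (SE 0.77) for SBPASE, and the replicates overlapped in both cases. The atpc1-1 columns of SBPASE over AT5G17630 ran from -3.46 to 1.27, and so covered all WT columns. Without WT replicate 5, in which AT5G17630 was lowest, the shifts were 2.22 and 2.09.

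**Figure D5:**
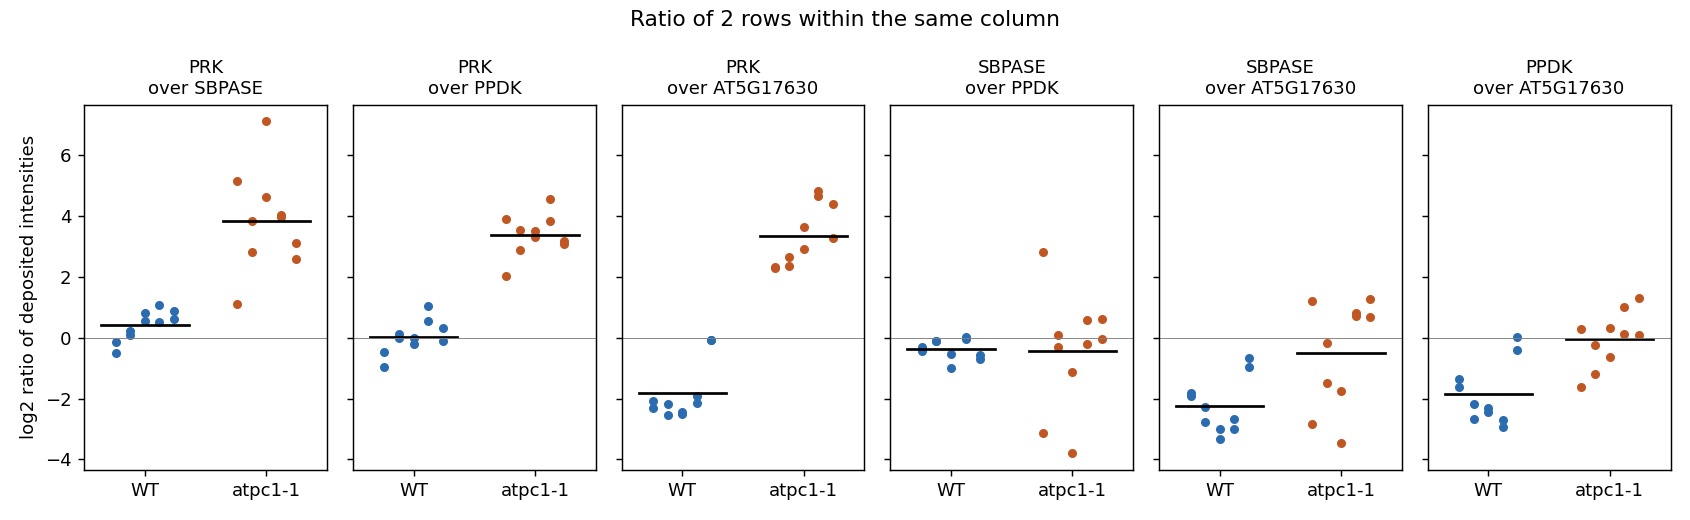
Log2 ratio of the deposited intensities of 2 rows within the same column (vertical) for the 6 pairs of genes, in the WT and atpc1-1 columns, with a black bar at the mean of the 5 replicates. The 3 ratios with PRK on top do not overlap between genotypes in any column, and the other 3 do. The share of all rows whose ratio with PRK does not overlap was not counted.

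Little of the surrounding pathways was measured. Of 116 genes on 6 lists (Calvin cycle, pyruvate and phosphoenolpyruvate metabolism, envelope carriers, the oxidative pentose phosphate pathway, plastid thioredoxins and their partners, and starch and sucrose metabolism) only 10 had a row of their own, the 4 genes above included. The other 6 gave 1 gene higher in atpc1-1, 0 lower and 5 that did not pass, beside 10.2% higher and 14.3% lower over all tested rows. These shares are near what the 6 genes gave, so the counts are no result about the lists. The 6 genes had a median log2 difference of 0.57 against -0.19 over all tested rows. None of the other envelope carriers and none of the starch and sucrose genes had such a row. The markers chosen for green tissue, seed, root and flower had 0 rows of their own, so they could check neither the tissue nor an admixture of other tissues. Rows of other genes were not used for such a check.

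The gene that passed was AT5G44520, the other Calvin cycle list gene with a row of its own, which the annotation used does not name. Its log2 intensity on the quantile scale was -2.57, -3.04, -4.60, -3.57 and -3.33 in WT replicates 1 to 5 and -2.17, -2.94, -2.18, -2.01 and -2.26 in the atpc1-1 replicates. The log2 difference was 1.11 (SE 0.37, limma adjusted p = 0.0462), and atpc1-1 replicate 2 lay within the WT range. The call does not hold widely. On the deposited scale the difference was -0.32 (limma adjusted p = 0.363), and the call was lost in 8 of 10 fits with a replicate left out, with adjusted p up to 0.0909.

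Among redox partners of the Calvin cycle enzymes, NTRC, an NADPH-dependent thioredoxin reductase of plastids, stood at -0.63 ± 0.60 in WT and -0.60 ± 0.37 in atpc1-1 (SD, n = 5 each; limma adjusted p = 0.949). AT2G04700, unnamed in the annotation and on the thioredoxin list, stood at -0.95 ± 1.09 in WT and 0.24 ± 0.18 in atpc1-1 (SD, n = 5 each), and did not pass (limma adjusted p = 0.0755). WT replicate 3, at -2.74, was far below the other replicates. It passed under median centring, at 1.62 (limma adjusted p = 0.0158), and without WT replicate 5, at 1.49 (limma adjusted p = 0.0271). It also passed with a pseudocount, among rows above 0 in all columns and with all 10 columns as replicates (limma adjusted p = 0.00724, 0.0418 and 0.0195). It did not pass on the deposited scale, at 0.46, or without WT replicate 3, at 0.76. AT3G52960, also unnamed and on that list, did not pass at -0.60 (SE 0.50, limma adjusted p = 0.405). It was -1.30 on the deposited scale (limma adjusted p = 0.0507), -0.14 under median centring and -0.11 without atpc1-1 replicate 1, and passed in none of these.

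AT5G58330, annotated as an NADP-dependent malate dehydrogenase, the chloroplast enzyme that exports reducing power as malate, did not pass at -0.22 (SE 0.30, limma adjusted p = 0.623). AT1G12230, unnamed and on the pentose phosphate list, did not pass at 1.95 (SE 0.75, limma adjusted p = 0.0770), with 7 of 10 WT and 6 of 10 atpc1-1 columns above 0. Its value and its call both depended on the setting. It passed without atpc1-1 replicate 1, at 2.56 (limma adjusted p = 0.0147), with zeros at the lowest positive value, at 6.81 (limma adjusted p = 0.00732), with a pseudocount, at 0.75 (limma adjusted p = 0.0107), and with all 10 columns as replicates, at 1.82 (limma adjusted p = 0.0361). It was 0.32 on the deposited scale and 0.90 with cyclic loess, and did not pass in either.

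The genes whose pattern was most like that of each gene were sought among 320 other single-gene rows above 0 in all columns, by Pearson's r of the quantile-scale log2 values over the 10 replicates. All rows share these replicates and their normalisation, and the genotype difference itself carries much of such an r, so it is a description. The correlation of deviations from the genotype means is therefore given beside it. PRK was most like AT4G31470 (r = 0.963, deviations 0.833), AT1G16080 (0.957, deviations 0.811) and FATB (0.927, deviations 0.702), a thioesterase of plastid fatty acid synthesis. SBPASE was most like AT3G09250, at r = 0.990 and 0.992 in the deviations, followed by AT1G56460 (0.923, deviations 0.909) and AT3G15140 (0.915, deviations 0.885). PPDK was most like AT4G24160 (0.965, deviations 0.910), AT4G21170 (0.861, deviations 0.487) and HEMA3 (0.854, deviations 0.532), an isoform of the first committed enzyme of tetrapyrrole synthesis. AT5G17630 was most like AT2G46300 (0.968, deviations 0.854), AT4G18180 (0.964, deviations 0.870) and AT5G39980 (0.957, deviations 0.809). Each of these rows, like AT5G17630, was far lower in WT replicate 5 than in the other WT replicates. That shared replicate enters their deviations, and the correlations without it were not computed. None of the 4 genes was among the nearest rows of another. Between the 4 genes the deviations correlated at only -0.06 to 0.28, the highest value being that of SBPASE with PPDK.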

How the data were processed

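Per the labels, total RNA of 10 WT and 10 atpc1-1 samples was measured. The authors deposited linear intensities, 1 column per sample and 3439 rows. No source used here gives their scaling, background correction or filtering, or says whether both genotypes were scaled alike. Of the rows, 692 list 1 gene, 870 several and 1877 none. Names came from the platform annotation, updated through RefSeq's table of TAIR10.1, which held 690 of the 692. No coordinates are given because no source names a build.

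Intensities were converted to log2, with 0 as missing, quantile normalised, and averaged over the columns of adjoining numbers. In each genotype 10 of 10 columns correlated best with that partner, at 0.161 to 0.711 in WT and -0.0678 to 0.197 in atpc1-1. These are correlations of each row's deviations from its genotype mean and not of the log2 values themselves. A change common to most rows is removed by quantile normalisation. The 3298 rows with at least 3 of 5 replicates in each genotype were fitted with limma 3.58.1 in R 4.3.3 (lmFit, eBayes, two-sided, Benjamini-Hochberg over all fitted rows), and 141 were left out. Differences are atpc1-1 minus WT. The SE of a ratio shift is that of the difference of 2 means. The fit was tested on simulated data with independent noise, which lacks whatever replicates and rows share here. That test therefore does not bear on the calls made in these data. The number of arrays limits the precision, and the p-values rest on sample spread that may be technical. The 4 genes and the lists were chosen with earlier results of these data known. Genes named are the 4, those of the lists with a row of their own, and the 3 rows most like each gene. WT and atpc1-1 columns of the same number were not treated as paired in the main fit. The deviations of same-numbered replicates correlated at 0.0244 to 0.216. Those of differently numbered replicates were not computed, so these values do not decide whether the columns were paired. A fit with the replicate number as a block called 317 rows higher and 415 lower.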

Additional observations from a re-analysis of the deposited data

Results flagged for a closer look

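In 7 of 40 groups of 5 replicates tested, the gap of the farthest replicate to its nearest neighbour was a larger share of the range of the group than Dixon's 95% critical value. Chance would give about 1 in 20 in independent groups, and these share replicates and scales. For AT5G17630 in WT the share was 0.820 on the quantile scale and 0.822 on the deposited scale, with replicate 5 lowest, and for the WT ratio of PRK over AT5G17630 it was 0.810, again in replicate 5. For PRK in WT on the deposited scale it was 0.786, with replicate 4 highest, and for PPDK in WT on that scale 0.737, with replicate 1 highest. For the ratio of SBPASE over PPDK in atpc1-1 it was 0.837, with replicate 3 lowest. For AT5G44520 in atpc1-1 on the quantile scale it was 0.735, with replicate 2 lowest.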

How the results depend on the processing

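PRK stayed above 0 and SBPASE, PPDK and AT5G17630 below 0 in all 10 other settings and all 10 fits with a replicate left out. Settings that changed only the rows fitted, the replicate unit or the blocking could not change these differences. Only the other scalings, the other treatments of values of 0 and the fits with a replicate left out could have changed their direction. The sizes moved by over 1 SD for PRK under median centring (2.42) and for SBPASE and PPDK on the deposited scale (-2.16 and -2.10). Rows called higher and lower, 337 and 471 here, were 126 and 1896 on the deposited scale, 570 and 840 with all 10 columns as replicates, 317 and 415 with the replicate block, 195 to 419 and 255 to 541 with a replicate left out, 558 higher with a pseudocount, and 293 and 230 lower with cyclic loess and with zeros at the lowest positive value. Without WT replicates 1, 2, 3 and 4 in turn the counts were 214 and 266, 195 and 258, 202 and 255, and 217 and 275. The split of calls was 497 higher and 403 lower under median centring, 310 and 293 with cyclic loess, 348 and 230 with zeros at the lowest positive value, and 558 and 521 with a pseudocount. With the replicate block AT5G44520 had a limma adjusted p of 0.0726 and no longer passed. The differences of the 4 genes could not move there, because each block held both genotypes equally.

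The shift of PRK over SBPASE was 2.31 with cyclic loess and 2.72 after quantile normalisation. That of PRK over PPDK was 2.49 with cyclic loess, 2.83 with a pseudocount and 2.80 after quantile normalisation. For the ratios, quantile normalisation was chosen after seeing the data. SBPASE over PPDK turned to 0.18 with cyclic loess, 0.18 with a pseudocount and 0.0855 after quantile normalisation, and ran from -0.25 to 0.44 with a replicate left out. AT5G44520 turned to -0.32 and NTRC to -0.77 on the deposited scale, AT5G58330 turned to 0.74 under median centring, and NTRC ran from -0.18 to 0.23 with a replicate left out. AT1G12230 had no value among rows above 0 in all columns. The causes were not tested. Signal over background was not analysed here.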

Other observations

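AT3G09250, the row most like SBPASE over the replicates, differed from it between partner columns. In atpc1-1 columns 1 and 2 SBPASE read 0.546 and 0.0335, whereas AT3G09250 read 0.0345 and 0.203, high where SBPASE was low. In atpc1-1 columns 5 and 6 SBPASE read 0.107 and 0.0207, and AT3G09250 read 0.0356 and 0.0263. The likeness of these rows therefore holds for the averaged replicates and not for the columns of atpc1-1 replicate 1. AT2G46300, most like AT5G17630, read 1.51 and 1.55 in the columns of WT replicate 5 against 4.39 or more in the other WT columns, as AT5G17630 did with 0.996 and 0.856 against 3.48 or more. In the columns of WT replicate 5 AT4G18180 read 0.459 and 0.387 against 3.14 or more. AT5G39980 read 0.320 and 0.355 there against 2.04 or more.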
